A study of Mus musculus with 2 samples.

Results

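The glucose transporter genes Slc2a1 (ENSMUSG00000028645, protein GLUT1) and Slc2a3 (ENSMUSG00000003153, protein GLUT3) were followed in mouse eye organoids. They were taken by symbol, and are 2 of the 27998 gene rows in each table. The organoids were grown from Rax-GFP embryonic stem cells, which carry GFP knocked in at a single allele of Rax (labelled Rax-GFP knockin Het) and are a single cell line. There was 1 library of cells at culture day 4 and 1 at day 6, with no other treatment and no line without the knock-in. In each library the cells of 3 independent experiments had been pooled before the library was made, so the spread between experiments cannot be recovered, and no p-value is given.

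Glucose enters most mammalian cells by facilitated diffusion through transporters of the SLC2 family. GLUT1 is the widespread transporter of dividing and embryonic cells, and GLUT3 is a high-affinity transporter best known from neurons, the early embryo and pluripotent cells. Imported glucose is phosphorylated by a hexokinase, which keeps it in the cell, and then enters glycolysis. The study asked what part glucose use plays in the budding of the optic vesicle, the outgrowth of the forebrain that forms the retina.

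In the GENCODE vM21 annotation of GRCm38, Slc2a1 lies on the plus strand of chromosome 4 (119108711 to 119137983), and its principal transcript has 10 exons and 3260 bases. Slc2a3 lies on the minus strand of chromosome 6 (122727809 to 122801640), and its principal transcript has 10 exons and 3959 bases. A pair of antisense gene models overlap Slc2a1, Gm12867 and Gm12868, and each held 0 or 1 UMI in each library. A UMI (unique molecular identifier) is the tag that marks a captured RNA molecule. The RefSeq promoter table (GRCm38.p6) held 1 of the 2 genes, so the promoter of Slc2a1 alone is shown. The 300 bases at chr4:119108495-119108794, plus strand, run from 250 bases before to 50 bases after the start, with motif matches in capitals.

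Slc2a1 promoter: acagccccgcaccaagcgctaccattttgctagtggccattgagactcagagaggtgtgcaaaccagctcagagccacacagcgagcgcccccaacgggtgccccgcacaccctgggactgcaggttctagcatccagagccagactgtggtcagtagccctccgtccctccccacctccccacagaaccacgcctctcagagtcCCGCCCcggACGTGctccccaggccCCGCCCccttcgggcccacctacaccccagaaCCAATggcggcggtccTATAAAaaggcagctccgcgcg

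The capitals mark 5 matches in order. The first and the third are the GC box, GGGCGG, on the other strand. The second is ACGTG, the core of the hypoxia response element. The last are matches to the CCAAT box, CCAAT, and the TATA box, TATAAA, and both lie after the RefSeq start. Each motif was searched on both strands and no 2 matches overlapped. Counted from the RefSeq start, their first bases lie at -45, -36, -20, 12 and 28. Of 32851 promoters of this length, 35.7% held the GC box, 19.6% ACGTG, 37.4% CCAAT and 13.6% TATAAA. These matches are letters in the window, not measured binding sites.

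After the study's stated cell filter, 8147 of 9114 barcodes were kept on day 4 and 6641 of 7446 on day 6, with medians of 11216 and 12514 UMIs per cell. Slc2a1 had 40103 UMIs on day 4 and 30123 on day 6, and Slc2a3 had 31695 and 20477. Of the kept barcodes, 78 occurred in both libraries. The labels name the cells retina progenitors, but on day 4, 1604 of the 8147 kept cells held 10 or more UMIs of Dppa5a and 85 held a UMI of Six6, so groups are named below by their gene. Levels below are CPM, the UMIs of a gene per 1000000 UMIs summed over the same cells, with exact Poisson 95% intervals in parentheses. Ratios carry exact binomial 95% intervals, and all intervals cover counting error only. A ratio was called higher or lower when it was at least 1.5-fold and its interval left out 1, among genes with a mean of 10 CPM or more. In sums over many cells, fewer cells with a transcript and fewer transcripts per cell cannot be told apart, so the share of cells with a UMI is given after drawing 5000 UMIs from each cell.

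Both transporters were at a lower level in the day 6 library. Slc2a1 had 407 CPM (403 to 410.5) in the day 4 library and 343 CPM (339 to 347) in that of day 6, a ratio of 0.844 (0.831 to 0.857). Slc2a3 was at 321 CPM (318 to 325) and 233 CPM (230.0 to 236), a ratio of 0.726 (0.713 to 0.739). Neither difference reached the 1.5-fold limit, which 19.6% of 6699 genes passed. The median log2 ratio of all these genes was 0.14, while those of Slc2a1 and Slc2a3 were -0.24 and -0.46. The share of cells with a UMI among 5000 went from 75.2% to 65.2% for Slc2a1 and from 68.5% to 52.2% for Slc2a3.

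The direction between the days was not the same in every group of cells. In cells with 10 or more UMIs of Dppa5a, a gene of naive pluripotency, Slc2a1 went from 396 CPM at day 4 to 496 CPM at day 6, a ratio of 1.25 (1.21 to 1.30). In the same cells Slc2a3 was at 442 and 575 CPM, a ratio of 1.30 (1.26 to 1.35). In the cells left after those and the cells with 5 or more UMIs of Col4a1 or any UMI of Sox10 were set aside, Slc2a1 went from 410.1 to 332.5 CPM, a ratio of 0.811 (0.797 to 0.824). Slc2a3 went there from 289 to 195 CPM, a ratio of 0.675 (0.661 to 0.689). None of these ratios passed the 1.5-fold limit, which 12.3% of 6612 genes passed in the Dppa5a cells and 19.6% of 6652 in the cells left. The cells left did not all move alike. Each cell was put in a single group, as described further on. Slc2a1 then went from 318.5 to 498 CPM in Fezf2 cells and from 320 to 250.1 CPM in Six6 cells. Slc2a3 went there from 245 to 297 CPM and from 269 to 123.5 CPM. The Six6 group held 65 cells on day 4 and 2753 on day 6. The differences between the groups were not tested, since each day is 1 library.

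The other sugar transporters of the family were at far lower levels. Of the 12 family members listed, only Slc2a1 and Slc2a3 reached a mean of 10 CPM. Slc2a8, a transporter held mostly inside the cell, went from 7.45 to 8.11 CPM between the days. Slc2a12 was at 2.74 and 2.43 CPM, Slc2a4, the insulin-responsive transporter of muscle and fat, at 1.11 and 2.19 CPM, and Slc2a6 at 1.09 and 1.53 CPM. The 6 sodium-coupled glucose carriers listed were each at 0.487 CPM or less.

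Genes that act on glucose next to the transporters were read from gene lists. Of the 6 genes listed for glucose phosphorylation, 2 reached 10 CPM and 1 was called lower, where 19.6% of all genes tested were called in either direction. This was Hk2, the hexokinase of proliferating tissues, which went from 159 to 86.8 CPM between the days, a ratio of 0.545 (0.530 to 0.560). The other, Adpgk, an ADP-dependent glucokinase, was at 10.95 and 13.9 CPM. Of 9 measured genes of transporter trafficking, 1 was called lower, a share under that background. It was Txnip, which promotes uptake of GLUT1 from the cell surface, at 18.9 and 10.2 CPM (ratio 0.539, 0.497 to 0.584). Among the others, Gipc1, a scaffold protein that binds GLUT1, was at 74.1 and 103 CPM, and the arrestin-related Arrdc4 was at 42.8 and 35.2 CPM. Vps26a, a part of the retromer that returns GLUT1 to the surface, was at 35.0 and 43.3 CPM.

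Of 6 measured transcriptional regulators of these genes, 0 were called, at a background of 19.6% of all genes. Sp1, a factor that binds GC boxes, went from 25.2 to 17.2 CPM between the days. Mycn was at 58.6 and 40.2 CPM, Arnt, the partner of the hypoxia-inducible factors, at 11.8 and 10.6 CPM, and Trp53 at 134 and 141 CPM. Of 11 measured hypoxia response genes, 2 were called higher and 4 lower on day 6. Ddit4 fell to a ratio of 0.394, Pdk1 to 0.446, Egln3 to 0.498 and Bnip3 to 0.509, while Vegfa rose to 1.785 and P4ha1 to 1.71. The last pair is named because no other member was called higher, a choice made after the values were seen. Of 16 measured genes of glycolysis and lactate, 4 were called lower and 0 higher. They were Pfkp (0.464), Aldoc (0.511), Ldhb (0.6395) and the lactate exporter Slc16a3 (0.650). The median log2 ratios of the hypoxia and glycolysis lists were -0.33 and -0.17, against 0.14 for all genes. Of 8 genes of the G2 and M phases 0 were called, and of 8 of S phase Rrm2 alone was called, higher at 1.605.

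**Figure D1:**
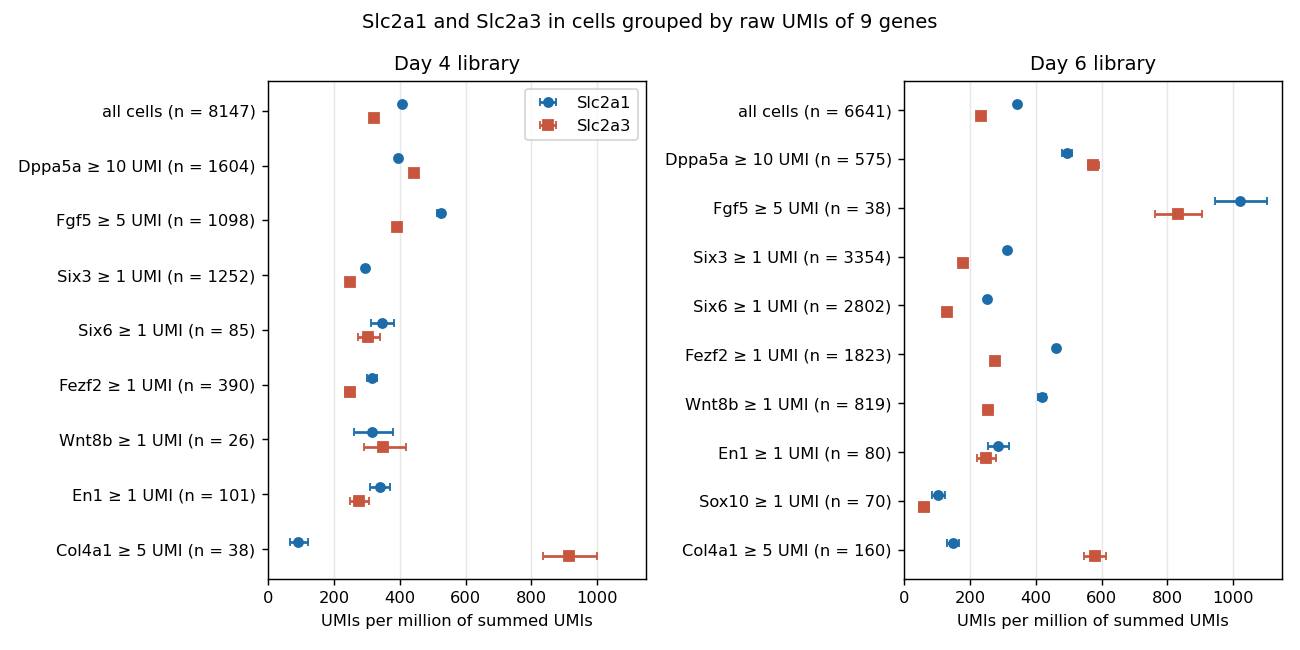
Levels of Slc2a1 (circles) and Slc2a3 (squares) in CPM, for all cells of each library and for cells that reach the stated UMIs of a grouping gene (groups of 20 cells or more, n cells in brackets, groups overlap). Bars are exact Poisson 95% intervals. On day 6 the Six6 cells lie at 251 and 129 CPM and the Fezf2 cells at 462 and 276 CPM, and in Col4a1 cells of both days Slc2a1 is low and Slc2a3 high.

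The cells were then grouped by raw UMIs of 9 genes, and each group was set against all other cells of its library. On day 4, 1604 cells held 10 or more UMIs of Dppa5a, and 8 of 9 pluripotency markers were 2-fold or more higher in them, all but Pou5f1. Slc2a3 was at 442 CPM (433 to 451) in these cells and 289.7 CPM (286 to 293.5) in the others, a ratio of 1.53 (1.49 to 1.56), and was called higher. The call rests on the limit: it was 1.49 without the Dppa5a cells that also held 5 or more UMIs of Col4a1, 1.49 for 5 or more UMIs of Dppa5a and 1.46 for 20 or more. Slc2a1 was at 396 CPM (387 to 404) against 409 CPM (405 to 414), a ratio of 0.967 (0.943 to 0.991). The direction of this small difference turned with the scale, to 1.03 with totals free of mitochondrial and ribosomal protein genes and to 1.12 when centred on the median of all genes. By steps of Dppa5a, Slc2a1 was at 375.5 CPM with 0 UMIs, 397 with 1, 456 with 2 to 4 and 463 with 5 to 9, all but the first at or above the 396 CPM of the Dppa5a cells. In this comparison 20.6% of 6463 genes were called.

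On day 6, 575 cells held 10 or more UMIs of Dppa5a, with 9 of 9 markers higher. Both transporters were called higher in them, where 39.6% of 6896 genes were called. Slc2a1 was at 496 CPM (481 to 511) against 327 CPM (323 to 331), a ratio of 1.52 (1.47 to 1.57). It was 1.48 for 5 or more UMIs of Dppa5a, under the limit. Slc2a3 was at 575 CPM (559 to 591) against 197 CPM (194 to 200.3), a ratio of 2.92 (2.82 to 3.01). Of the thinned cells, 85.7% held a UMI of Slc2a3, against 49.0% of the other cells. The level of Slc2a3 rose with each step of Dppa5a on day 6, from 181 CPM at 0 UMIs through 217 at 1, 344 at 2 to 4 and 491 at 5 to 9.

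Within the Dppa5a cells the transporters parted where Col4a1, a basement membrane collagen of the primitive endoderm, was present. On day 6, 71 of the 575 cells also held 5 or more UMIs of Col4a1, and Slc2a1 was at 125 CPM (104 to 149) in them and at 545 CPM (528 to 562) in the other 504. Slc2a3 was at 620.1 CPM (572 to 671) and 569 CPM (552 to 586). Without the cells with Col4a1, the ratio of Slc2a1 in Dppa5a cells was 1.67 (1.61 to 1.72). Droplets that hold more than 1 cell were not removed, and their part in this overlap was not tested.

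Fgf5 marks the epiblast after it leaves the naive state. On day 4, 1098 cells held 5 or more UMIs of Fgf5, but 0 of 5 other epiblast markers were 2-fold higher in them, so these are named here by Fgf5 alone. Slc2a1 was at 525 CPM (514 to 535) in them against 381 CPM (377 to 385), a ratio of 1.38 (1.345 to 1.41). Slc2a3 was at 392 CPM (382 to 401) against 306 CPM (302 to 309.9), a ratio of 1.28 (1.245 to 1.31). Neither passed the 1.5-fold limit, which 1.41% of 6513 genes passed. In cells with 10 or more UMIs of Fgf5, Slc2a3 passed it at 1.56 (1.465 to 1.66), and Slc2a1 was at 1.496 (1.41 to 1.58), just inside. In the ranking of all these ratios Slc2a1 stood above 99.05% of genes and Slc2a3 above 97.0%.

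Slc2a1 rose at each step of Fgf5, from 327 CPM at 0 UMIs through 366 at 1, 433 at 2 to 4 and 515 at 5 to 9 to 602 CPM (569 to 637) at 10 or more. Slc2a3 was at 324 CPM at 0 UMIs, 292 at 1 and 299 at 2 to 4, and higher only from 378 at 5 to 9 to 496 CPM (466 to 527.5) at 10 or more. The flat start of Slc2a3 went with the Dppa5a cells among those with little Fgf5. With Dppa5a, Col4a1 and Sox10 cells set aside, Slc2a3 rose at each step, from 250.4 CPM through 264, 282.5 and 365 to 465 CPM (432 to 500.6). Depth moves along these steps too, from a median of 9532 UMIs per cell to 19814. Within the lowest, middle and highest depth group of cells the ratio of Slc2a1 was 1.39, 1.38 and 1.37, and that of Slc2a3 was 1.435, 1.33 and 1.32. With Dppa5a, Col4a1 and Sox10 cells set aside, the Fgf5 ratios were 1.415 for Slc2a1 and 1.40 for Slc2a3, where 0.631% of 6497 genes were called. On day 6 only 38 cells held 5 or more UMIs of Fgf5, and in them Slc2a1 was at 1021 CPM (944 to 1102) and Slc2a3 at 832 CPM (762.5 to 906). Of these 38 cells, 13 lay outside all the other groups and 24 were in the highest depth group. Doublets were left in, and no markers or background share were computed for a group this small.

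Six3 and Six6 are homeobox genes of the anterior neural plate and the eye field, and Six6 follows later in the optic vesicle. On day 4, 1252 cells held a UMI of Six3, and 5 of 6 anterior neural markers were higher in them. Slc2a1 was at 295 CPM (287 to 303) in them against 431 CPM (427 to 436), a ratio of 0.684 (0.665 to 0.704). Slc2a3 was at 247 CPM (240.1 to 255) against 338 CPM (334 to 342), a ratio of 0.732 (0.709 to 0.756). Both stayed inside the 1.5-fold limit, which 4.83% of 6497 genes passed, and Slc2a1 passed it at 0.656 in cells with 2 or more UMIs of Six3. Slc2a1 fell from 431 CPM at 0 UMIs of Six3 to 312 at 1, 276 at 2 to 4 and 260.4 CPM (235 to 288) at 5 to 9. With Dppa5a, Col4a1 and Sox10 cells set aside the ratios were 0.667 and 0.7865, where 2.39% of 6477 genes were called.

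On day 6, 3354 cells held a UMI of Six3, with 3 of 6 markers higher, and 4.84% of 6812 genes were called. Slc2a1 was at 311 CPM (306 to 316) against 380.0 CPM (374 to 386), a ratio of 0.819 (0.8002 to 0.837). Slc2a3 was at 178 CPM (174 to 182) against 297 CPM (292 to 302), a ratio of 0.599 (0.583 to 0.616), and was called lower. In cells with 2 or more UMIs of Six3 it was 0.670, inside the limit. In the 548 Six3 cells with no UMI of Six6, Fezf2, Wnt8b, En1 or Sox10, and few of Dppa5a and Col4a1, the ratios against all other cells were 1.01 (0.972 to 1.06) and 0.854 (0.807 to 0.902).

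Six6 was found in 85 cells on day 4 and 2802 on day 6, and on day 6 the eye field genes Rax, Pax6, Lhx2, Six3 and Vax2 were 2-fold or more higher in these cells. Slc2a1 was at 251 CPM (246 to 256) in them against 413 CPM (407 to 419), a ratio of 0.609 (0.594 to 0.624). Slc2a3 was at 129 CPM (125 to 132) against 313 CPM (308 to 318), a ratio of 0.412 (0.399 to 0.426). Both were called lower, where 5.35% of 6805 genes were called. A UMI of Slc2a1 was seen in 57.7% of the thinned Six6 cells and 70.6% of the others, and one of Slc2a3 in 37.4% and 63.0%.

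The fall was graded for both genes. Slc2a1 was at 413 CPM with 0 UMIs of Six6, 321 with 1, 241 with 2 to 4, 203 with 5 to 9 and 207 with 10 or more, the last pair with overlapping intervals. Slc2a3 fell at every step, from 313 CPM through 184, 124 and 89.3 to 71.0 CPM (60.2 to 83.1). Within the lowest, middle and highest depth group the Six6 ratio was 0.522, 0.572 and 0.653 for Slc2a1 and 0.323, 0.370 and 0.467 for Slc2a3. With Dppa5a, Col4a1 and Sox10 cells set aside the ratios were 0.612 and 0.473, and 2.58% of 6752 genes were called. In the 85 day 4 cells with Six6, where 6.28% of 6577 genes were called, Slc2a1 was at 347 CPM (313 to 384) and Slc2a3 at 305 CPM (273 to 339), with ratios of 0.853 (0.769 to 0.943) and 0.948 (0.849 to 1.055). In the day 4 cells with 2 or more UMIs of Six6 the ratios were 0.545 (0.434 to 0.676) and 0.574 (0.446 to 0.726), both past the limit.

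**Figure D2:**
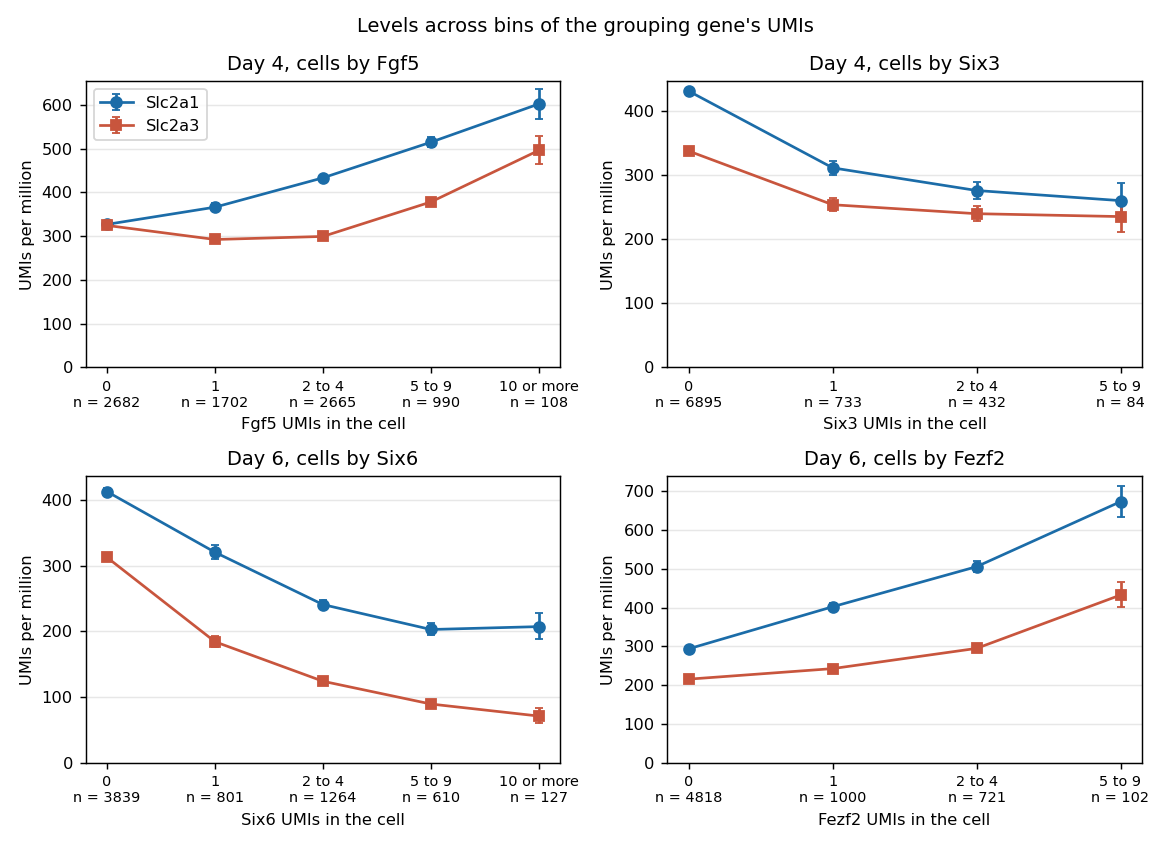
Levels of Slc2a1 (circles) and Slc2a3 (squares) in CPM in cells binned by raw UMIs of Fgf5 and Six3 on day 4 and of Six6 and Fezf2 on day 6 (bins of 20 cells or more), with exact Poisson 95% intervals. Slc2a3 runs from 313 to 71.0 CPM across the Six6 bins, and both genes rise across the Fezf2 bins.

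Fezf2, a regulator of the anterior forebrain, went the other way on day 6. The group held 1823 cells, and only 2 of 5 markers, Lhx5 and Barhl2, were 2-fold higher in it, so it is named by Fezf2 alone. Slc2a1 was at 462 CPM (454 to 471) against 294 CPM (289 to 298), a ratio of 1.575 (1.54 to 1.61), and was called higher, where 2.43% of 6796 genes were called in either direction. With all barcodes kept, the ratio was 1.48, under the limit. Slc2a3 was at 276 CPM (270.0 to 283) against 215 CPM (212 to 219), a ratio of 1.28 (1.25 to 1.32), under the limit. Slc2a1 rose from 294 CPM with 0 UMIs of Fezf2 to 402 with 1, 505.5 with 2 to 4 and 673 CPM (634.5 to 714) with 5 to 9. Slc2a3 rose over the same steps from 215 CPM to 242.5, 295 and 432 CPM (401 to 465).

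With the Dppa5a, Col4a1 and Sox10 cells set aside, the Fezf2 ratios on day 6 were 1.72 (1.68 to 1.77) for Slc2a1 and 1.71 (1.65 to 1.76) for Slc2a3. Both were then called higher, where 0.903% of 6755 genes were called in either direction. Among these same cells the levels were lowest with Six6 alone and highest with Fezf2 alone. Slc2a1 was at 213 CPM in the 2215 cells with Six6 and no Fezf2, 340.1 in the 1896 with neither, 385 in the 545 with both and 499 CPM in the 1253 with Fezf2 and no Six6. Slc2a3 was at 101, 232, 206 and 299.5 CPM in that order. Cells with Fezf2 lay higher than cells without it both where Six6 was present and where it was absent.

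On day 4 the Fezf2 group held 390 cells, with 4 of 5 markers higher, and 5.11% of 6520 genes were called. Slc2a1 was at 316 CPM (301.5 to 332) against 412 CPM (408 to 416), a ratio of 0.7685 (0.7315 to 0.807). Slc2a3 was at 247 CPM (234 to 261) against 325.5 CPM (322 to 329), a ratio of 0.760 (0.719 to 0.803). Both genes thus lay lower in Fezf2 cells on day 4 and higher on day 6. This change of direction was not tested.

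Wnt8b, a Wnt ligand of the dorsal forebrain, marked 819 cells on day 6, with 5 of 5 markers higher. Slc2a1 was at 419 CPM (407 to 430.4) against 331 CPM, a ratio of 1.26 (1.23 to 1.30), and Slc2a3 at 254 CPM (245 to 263.5) against 229.9 CPM, a ratio of 1.11 (1.06 to 1.15). Both were inside the limit, which 3.35% of 6806 genes passed. The direction for Slc2a3 depended on the cells shared with other groups, since the ratio was 0.893 (0.834 to 0.955) in the 320 Wnt8b cells outside the Dppa5a, Col4a1, Sox10, En1, Six6 and Fezf2 groups. On day 4, 26 cells held a UMI of Wnt8b.

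En1, a gene of the midbrain and hindbrain border, marked 101 cells on day 4 and 80 on day 6, with 4 and 5 of 6 markers higher. Slc2a1 was at 339 CPM (309 to 371) and 285 CPM (255 to 318), with ratios to the other cells of 0.831 (0.757 to 0.911) and 0.829 (0.742 to 0.924). Slc2a3 was at 277 CPM (250.1 to 307) and 249.9 CPM (222 to 280.3), with ratios of 0.861 (0.776 to 0.953) and 1.07 (0.952 to 1.204). With all barcodes the ratios of Slc2a3 were 1.24 (1.17 to 1.32) on day 4, the opposite direction, and 1.31 (1.21 to 1.42) on day 6. None passed the limit, which 5.04% of 6502 genes passed on day 4 and 8.24% of 6938 on day 6.

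Sox10, a transcription factor of the neural crest, marked 70 cells on day 6 with 6 of 6 markers higher, and 9 cells on day 4. Both transporters were called lower in the day 6 group, where 13.6% of 6713 genes were called. Slc2a1 was at 102 CPM (83.9 to 122) against 346 CPM (342 to 350.1), a ratio of 0.294 (0.242 to 0.354). Slc2a3 was at 59.5 CPM (46.0 to 75.6) against 235 CPM (232 to 239), a ratio of 0.2525 (0.195 to 0.321). With all barcodes the ratios were 0.417 (0.362 to 0.477) and 0.458 (0.3905 to 0.534). A single UMI of Sox10 let in cells with higher levels: 45 cells with 1 UMI were at 144.5 and 87.9 CPM. The 23 cells with 2 to 4 UMIs were at 40.5 CPM (23.1 to 65.7) and 7.59 CPM (1.57 to 22.2). In these 23 cells a UMI was seen after thinning in 17.4% for Slc2a1 and 8.70% for Slc2a3, at a median depth of 17414 UMIs. No cell type here is known to lack Slc2a1, so these lowest shares stand nearest to a background, and the part of free RNA in them was not tested.

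In Col4a1 cells of day 6 the members were called in opposite directions. On day 6, 160 cells held 5 or more UMIs of Col4a1, and 10 of 10 primitive endoderm markers, among them Gata4, Gata6 and Sox17, were 2-fold or more higher in them. Slc2a1 was at 147 CPM (131 to 165) against 348 CPM (344 to 352), a ratio of 0.424 (0.3765 to 0.475), and was called lower. Slc2a3 was at 579 CPM (546 to 613) against 225 CPM (222 to 228), a ratio of 2.57 (2.42 to 2.73), and was called higher. The background was high, with 51.2% of 7329 genes called. The group also stood apart in its median mitochondrial share, 4.54% against 2.48% over the library, and in its median depth, 10854 UMIs against 12533 in the other cells, and the part of either in these ratios was not tested. The 89 cells of this group with fewer than 10 UMIs of Dppa5a gave the same directions, with Slc2a1 at 169.5 CPM (145 to 197) and Slc2a3 at 538 CPM (494 to 585). On day 4 only 38 cells reached 5 UMIs of Col4a1, and Slc2a1 was at 90.5 CPM (66.5 to 120.4) and Slc2a3 at 915 CPM (834.5 to 1001) in them.

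When each cell was put in a single group, 16 groups of 50 cells or more remained over both days. A cell went to the first group it reached in the order Dppa5a, Col4a1, Sox10, En1, Six6, Fezf2, Wnt8b, Six3 and Fgf5. Cells with both Six6 and Fezf2 thus counted as Six6 cells at most. On day 6 the Six6 group kept 2753 of 2802 cells and the Fezf2 group 1245 of 1823. Other orders were not tried. Slc2a1 ran from 84.8 CPM in day 6 Sox10 cells, through 169.5 in day 6 Col4a1 cells and 250.1 in day 6 Six6 cells, to 498 in day 6 Fezf2 cells and 573 in day 4 Fgf5 cells. The intervals of day 6 Dppa5a cells (481 to 511) and day 6 Fezf2 cells (488 to 509) overlapped. From 290.5 to 396 CPM lay 9 groups of which each overlapped the next: day 6 En1, day 4 Six3, En1 and Fezf2, the day 6 cells of no group, day 4 Six6, day 6 Six3 and Wnt8b, and day 4 Dppa5a. Slc2a3 ran from 47.9 CPM in day 6 Sox10 cells and 123.5 in day 6 Six6 cells to 442 in day 4 Dppa5a cells, 538 in day 6 Col4a1 cells and 575 in day 6 Dppa5a cells, the last pair with overlapping intervals. Another run of 9 overlapping neighbours lay from 201 CPM in day 6 Six3 cells to 281 CPM in the day 4 cells of no group. These orders rest on single libraries.

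The share of Slc2a1 in the summed UMIs of the pair put the balance of the members on a scale that needs no library total. UMIs near the transcript end are not divided by length, so the share is compared between groups and is not read as a ratio of molecules. It was 55.9% (55.5 to 56.2) over all cells on day 4 and 59.5% (59.1 to 60.0) on day 6. It was lowest in Col4a1 cells, at 9.004% (6.69 to 11.8) on day 4 and 20.3% (18.2 to 22.4) on day 6. Of the 38 day 4 cells, 23 also held 10 or more UMIs of Dppa5a, and the share in the other 15 was 13.9% (8.94 to 20.3). Dppa5a cells stood at 47.2% and 46.3%, near each other on both days while their levels differed by 1.25-fold and 1.30-fold. Six6 cells of day 6 had the highest share among the larger groups, at 66.1% (65.3 to 66.9), and Six3, Fezf2 and Wnt8b cells of that day lay between 62.2% and 63.6%. The share also moved with measures of cell quality. In 5 equal groups of cells ranked by mitochondrial share it was 64.8% in the lowest and 44.5% in the highest on day 6, and 54.7% and 51.2% on day 4. Ranked by depth it lay between 51.4% and 57.95% on day 4 and between 54.2% and 62.6% on day 6. The part of either in the shares by group was not tested.

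**Figure D3:**
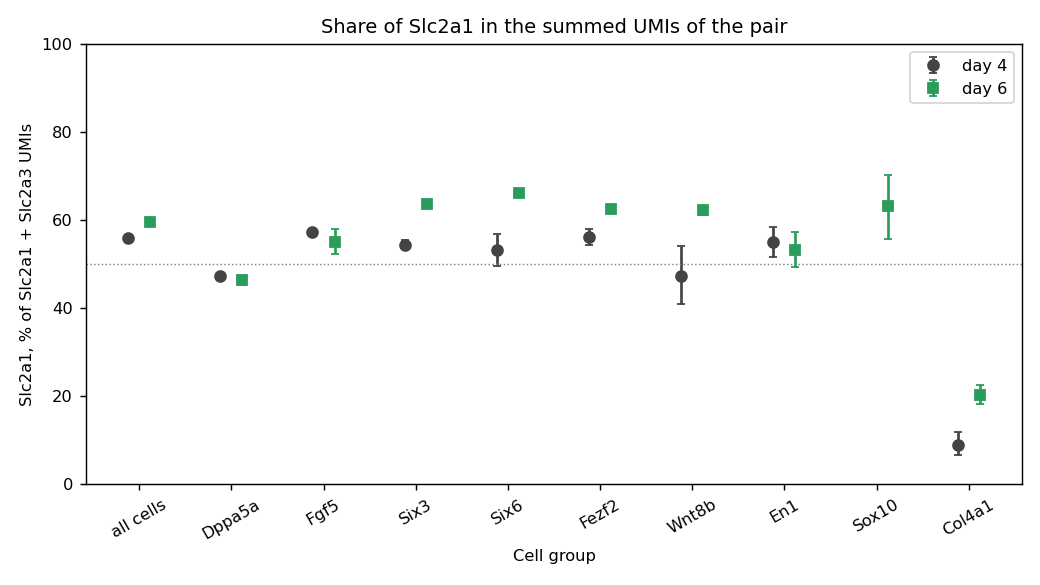
Slc2a1 as a percentage of the summed Slc2a1 and Slc2a3 UMIs, for all cells and for each group of 20 cells or more, on day 4 (circles) and day 6 (squares), with exact binomial 95% intervals and a dotted line at equal UMIs. Col4a1 cells lie at 9.004% and 20.3%, Dppa5a cells at 47.2% and 46.3%, and day 6 Six6 cells at 66.1%.

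Single cells differed in this balance by more than the draw of UMIs gives. Over the 5533 day 4 cells with 5 or more UMIs of the pair, the SD of the share was 24.4 percentage points, and binomial sampling at the pooled share gives 16.5. On day 6 the values were 24.05 and 16.3 over 3537 cells. With each cell in a single group, they were 21.9 and 16.8 in day 6 Six6 cells and 24.3 and 14.2 in day 6 Dppa5a cells. The count of each member also varied beyond a Poisson draw. After thinning, the variance over the mean was 2.11 for Slc2a1 and 2.19 for Slc2a3 on day 4, and 2.55 and 2.62 on day 6, where the medians over the 1070 and 1155 genes with a mean of 0.5 UMIs or more were 1.11 and 1.10.

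The per-cell levels of the members were weakly related on day 4 and more closely on day 6. Pearson's r of log(1 + UMIs per 10000) was 0.191 over 8147 cells on day 4 and 0.387 over 6641 cells on day 6. After thinning it was 0.149 and 0.301, and with the total UMIs removed by regression 0.190 and 0.378. The cells of a library share their groups and any free RNA, so r is a description with no test. Within groups on day 6, r after thinning was 0.246 in Six6 cells, 0.223 in Fezf2 cells, 0.1475 in Wnt8b cells, 0.304 in Dppa5a cells and 0.127 in Col4a1 cells. On day 4 it was 0.100 in Dppa5a cells, 0.132 in Fgf5 cells and 0.117 in Six3 cells.

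Slc2a3 was higher with each further UMI of Slc2a1, although the intervals of neighbouring steps at 3 or more UMIs often overlapped. On day 4 it was at 270.1 CPM (260.0 to 281) in thinned cells with 0 UMIs of Slc2a1, 324.5 with 2 and 477 CPM (451 to 504) with 6 or more. On day 6 it was at 149.6 CPM (143 to 157) with 0, 242 with 2 and 542 CPM (509.6 to 577) with 6 or more. The reverse held as well, with Slc2a1 on day 6 going from 239 CPM with 0 UMIs of Slc2a3 to 768 CPM (713 to 826) with 6 or more. A UMI of both genes was seen in 53.1% (52.0 to 54.2) of thinned cells on day 4 and 37.8% (36.6 to 39.0) on day 6, and the products of the separate shares were 51.5% and 34.05%.

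**Figure D4:**
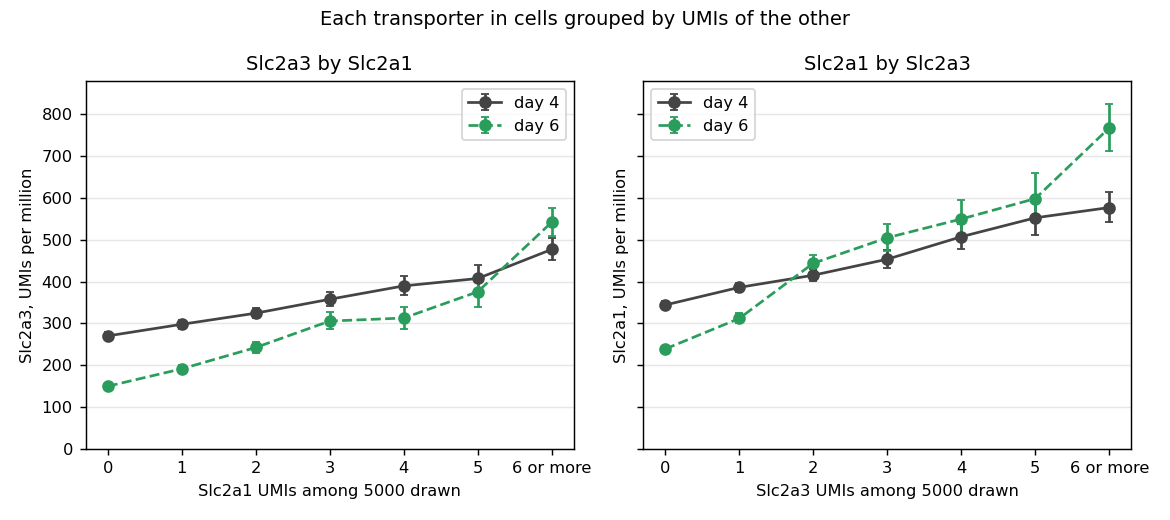
Left, Slc2a3 in CPM by the Slc2a1 UMIs of the cell, and right, Slc2a1 by the Slc2a3 UMIs, in cells thinned to 5000 UMIs, for day 4 (solid) and day 6 (dashed) with exact Poisson 95% intervals. Slc2a3 goes from 149.6 to 542 CPM on day 6 and from 270.1 to 477 CPM on day 4.

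On day 4 the short lists for the members shared no gene, and on day 6 they shared Aldoa and Igfbp2. These lists hold the genes whose per-cell pattern was most like each member. For Slc2a1 on day 4 these were Ldha (r 0.255), Pkm (0.2165), Tpi1 (0.208), Pgam1 (0.195) and Gapdh (0.186), all enzymes of glycolysis or of lactate formation, over 7965 thinned cells and 4399 genes. On day 6 they were Igfbp2, a binding protein of insulin-like growth factors (0.430), Ldha (0.420), Pkm (0.391), Aldoa (0.386) and Tpi1 (0.357), over 6641 cells. For Slc2a3 on day 4 they were Fam162a (0.258), Bnip3 (0.2575), Aldoa (0.221), Anxa2 (0.220) and Apoe (0.217). On day 6 they were Aldoa (0.342), Slc2a1 itself (0.301), Bnip3 (0.298), Igfbp2 (0.292) and Gpx4, a glutathione peroxidase (0.277). Bnip3, a mitophagy receptor, is on the hypoxia list. The lack of a shared gene on day 4 rests on where the lists were cut. Just past the cut for Slc2a1 on day 4 came Aldoa (0.1698), at rank 6. Igfbp2 was at rank 9 for Slc2a1 (0.1496) and rank 10 for Slc2a3 (0.198) on that day. With Dppa5a, Col4a1 and Sox10 cells set aside, both day 4 lists held Aldoa, at 0.2202 for Slc2a1 and 0.2193 for Slc2a3. The median r over all genes lay between -0.0129 and 0.00485 for each member on each day. Gapdh, Ldha, Aldoa and Pkm were at 1133 CPM or more on both days, and the part of such depth in these r values was not tested.

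Over the 16 groups, the profile of log2(CPM + 1) of Slc2a1 was most like that of Tpi1 (r 0.9275), followed by Hist3h2ba (0.862), Slc16a3 (0.8575), Pfkl (0.854) and Aktip (0.853). That of Slc2a3 was most like Plp2 (0.952), Agtrap (0.9415), Card19 (0.925), Ucp2 (0.922), an inner mitochondrial membrane carrier, and Cep170b (0.9145). Between the members r was 0.670, which put Slc2a3 at rank 80 for Slc2a1 and Slc2a1 at rank 178 for Slc2a3. The groups of a day share a library, and these r values are descriptions over 16 points.

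**Figure D5:**
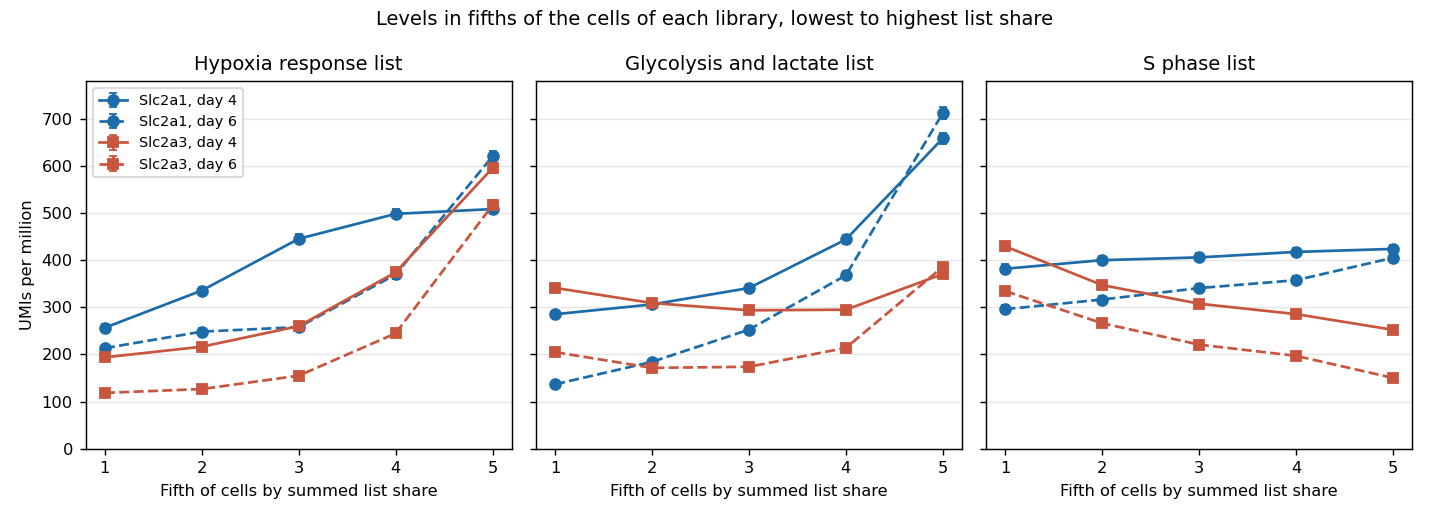
Levels of Slc2a1 (circles) and Slc2a3 (squares) in CPM, in 5 equal groups of the cells of each library ranked by the summed share of a gene list, lowest to highest, on day 4 (solid) and day 6 (dashed), with exact Poisson 95% intervals. Both rise with the hypoxia list, Slc2a1 runs from 137 to 712 CPM with the glycolysis list on day 6, and Slc2a3 falls with the S phase list.

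The lists separated the members only in part: both rose with the hypoxia list, and they went in opposite directions with the S phase list. Cells of each library were ranked by the summed share of a list and cut in 5 groups of equal size. The lists hold neither member. The share sums raw UMIs, so the genes with most UMIs weigh most in a rank. On the hypoxia list Higd1a was at 481 and 384 CPM on days 4 and 6, and the next, Bnip3, at 158 and 80.3 CPM. The highest on the glycolysis list were Gapdh, at 3297 and 3648 CPM, and Ldha, at 2033 and 1715 CPM. Ranks without these genes were not tried. With 17 hypoxia response genes, Slc2a1 went from 257 CPM in the lowest group to 508 in the highest on day 4, and from 213.5 to 620.4 on day 6. Slc2a3 went from 194 to 595 CPM on day 4 and from 119 to 517 on day 6. On day 6 both rises were steepest at the last step, from 369.7 to 620.4 CPM and from 245 to 517 CPM. With Dppa5a, Col4a1 and Sox10 cells set aside, the ends were 251 and 591 CPM for Slc2a1 and 190.5 and 546.5 CPM for Slc2a3 on day 4, and 212 and 608 CPM and 112 and 415.5 CPM on day 6.

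With the 18 genes of glycolysis and lactate, Slc2a1 went from 285 to 658 CPM on day 4 and from 137 to 712 CPM on day 6. Slc2a3 had no such steady order: on day 4 it was at 341 CPM in the lowest group, 294 in the middle and 371 in the highest. On day 6 it was at 205, 172, 174, 214 and 386 CPM from the lowest group to the highest. With the 8 genes of S phase, in which the DNA is copied, the members parted. Slc2a3 fell at each step, from 429 to 252 CPM on day 4 and from 334 to 150.3 CPM on day 6. Slc2a1 rose over the same steps, from 382 to 424 CPM and from 296 to 405 CPM. With Dppa5a, Col4a1 and Sox10 cells set aside the fall of Slc2a3 was from 371.5 to 233 CPM and from 241 to 142.5 CPM, and the ends for Slc2a1 were 392 and 427 CPM and 271 and 411 CPM. Median depth in the end groups was 9551 and 10923 UMIs on day 4 and 11693 and 12146 on day 6. With the 8 genes of the G2 and M phases, Slc2a1 on day 4 was at 369 CPM in the lowest group and 462 in the highest, and on day 6 at 356 and 349 CPM. Slc2a3 was there at 350.1 and 336 CPM on day 4 and at 254 and 252 CPM on day 6.

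Measures of cell quality moved with the members as well. Ranked by mitochondrial share, the day 6 cells had Slc2a1 at 451 CPM in the lowest group and 276 CPM in the highest, and Slc2a3 at 245 and 344 CPM with a low of 183 between. On day 4 Slc2a1 went from 436 to 379.8 CPM and Slc2a3 was at 361 and 363 CPM at the ends. Ranked by depth, Slc2a1 on day 6 rose from 282 to 379 CPM, and on day 4 it was at 405 and 431.5 CPM. Slc2a3 did not follow Slc2a1 upward on day 4. The share of Slc2a1 in the pair was 51.4% in the shallowest group and 56.65% in the deepest on that day, and 54.2% and 58.6% on day 6. The part of these measures in the results by group was not tested.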

How the data were processed

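Single-cell 3' RNA-seq (10x Chromium) was analysed from 1 library of day 4 and 1 of day 6 organoid cells. The deposited values are raw UMI counts per gene and cell, which the authors made by aligning reads and counting molecules. Cell Ranger 2.0.1, Seurat 2.3.4 and the mm10 build stand in the submitters' processing notes. The study's methods name later versions of both tools, and which of them made the deposited counts is not settled by the sources used here. Groups came from the sample labels. No cell annotation was used here.

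Cells were kept by the thresholds of the study's methods: 500 to 5000 genes, 500 to 26000 UMIs, at most 10% mitochondrial, at least 20% ribosomal protein and at most 0.5% haemoglobin counts. The numbers of cells kept differ from those of the study, which states more cells for each day than the 9114 and 7446 barcodes deposited. Doublets were left in, no caller was run, and free RNA was not removed. For detection, 5000 UMIs were drawn from each cell; 182 cells of day 4 and 0 of day 6 were too shallow. Of all barcodes, 91 occurred in both libraries. Groups were set by raw UMIs: 10 or more of Dppa5a, 5 or more of Fgf5 or Col4a1, and 1 or more of Six3, Six6, Fezf2, Wnt8b, En1 or Sox10. With 1 library per day there was no test, and all comparisons are ratios of summed counts.

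The members and gene lists were chosen with earlier results of these data known. Named genes were the members, the 9 grouping genes, family members whose mean reached 1 CPM, up to 4 genes of each other list with the largest ratio between days, and the 5 genes most like each member. Likeness over groups used log2(CPM + 1) of 4399 genes at 20 CPM or more. Alternatives were other cell filters, scalings, thinning, thresholds and exclusive groups. Python 3.11.15, numpy 2.4.6, scipy 1.17.1, pandas 2.3.3 and matplotlib 3.10.9 were used, and the calculations were tested on simulated data.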

Additional observations from a re-analysis of the deposited data

Results flagged for a closer look

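In several comparisons the direction differed between the days or between groups of cells. None of these differences was tested, since each day is 1 library, and no explanation was weighed.

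Slc2a1 in Dppa5a cells had a ratio to other cells of 0.967 on day 4 and 1.52 on day 6. The day 4 direction is not firm: the ratio was 1.05 with all barcodes, 1.03 with totals free of mitochondrial and ribosomal protein genes, 1.12 when centred on the median of all genes and 1.02 for 5 or more UMIs of Dppa5a. In Fezf2 cells the ratio of Slc2a1 was 0.7685 on day 4 and 1.575 on day 6, and that of Slc2a3 was 0.760 and 1.28.

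From day 4 to day 6 the ratio of Slc2a1 was 1.25 within Dppa5a cells and 0.811 within the cells outside the Dppa5a, Col4a1 and Sox10 groups. That of Slc2a3 was 1.30 and 0.675. The cells outside those groups held both directions. With each cell in a single group, Slc2a1 went from 318.5 to 498 CPM in Fezf2 cells and from 296 to 347.5 CPM in Six3 cells. It went from 320 to 250.1 CPM in Six6 cells, from 300 to 290.5 CPM in En1 cells and from 417 to 320 CPM in cells of no group. Slc2a3 rose in Fezf2 cells, from 245 to 297 CPM, and was lower on day 6 in the other groups named here.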

How the results depend on the processing

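No paired analysis was possible because each day is 1 library. Of 86 values that answer a comparison under an alternative, 51 moved past the counting interval (for the per-cell r, by more than 0.05) and 35 did not; of 311 other values 100 moved. The cause of each move was not tested. Ratios are given below for day 6 over day 4, for Dppa5a cells on each day and for Six6 cells on day 6, the groups against other cells.

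With all barcodes, Slc2a1 was at 0.896 (days), 1.05 (Dppa5a, day 4) and 0.644 (Six6), and Slc2a3 at 0.790 (days) and 0.463 (Six6). With a stricter cell filter, Slc2a1 was at 1.59 (Dppa5a, day 6) and 0.588 (Six6), and Slc2a3 at 0.681 (days), 3.03 (Dppa5a, day 6) and 0.388 (Six6). Without cells under 1% mitochondrial counts the ratio of Slc2a1 between days was 0.830. With totals free of mitochondrial and ribosomal protein genes, Slc2a1 was at 0.801 (days), 1.03 and 1.69 (Dppa5a, days 4 and 6) and 0.5865 (Six6), and Slc2a3 at 0.689, 1.63, 3.24 and 0.397. Centred on the median of all genes, Slc2a1 was at 0.7815, 1.12, 1.85 and 0.572, and Slc2a3 at 0.672, 1.765, 3.56 and 0.387. As a mean over cells per 10000 UMIs, Slc2a1 was at 0.822 (days), 1.60 (Dppa5a, day 6) and 0.5915 (Six6), and Slc2a3 at 0.6955, 3.05 and 0.389. Thinned to 5000 UMIs, Slc2a1 was at 0.818 (days) and 1.60 (Dppa5a, day 6), and Slc2a3 at 0.6945, 3.08 and 0.385 (Six6).

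For 5 or more UMIs of Dppa5a the day 4 ratios were 1.02 and 1.49, and for 20 or more those of Slc2a3 were 1.46 and 2.77. For 2 or more UMIs of Six6 the ratios were 0.5685 and 0.373, and with exclusive groups that of Slc2a3 was 0.394. Without Dppa5a cells the ratios between days were 0.799 and 0.681. A pair of alternatives was chosen after seeing the data: Dppa5a cells without those at 5 or more UMIs of Col4a1 (Slc2a1 on day 6, 1.67), and Col4a1 cells without those at 10 or more of Dppa5a (0.4875 and 2.39). The per-cell r was 0.301 after thinning on day 6, and rho after thinning was 0.139 and 0.260. With a pseudocount of 5, Akap12 took a place among the 5 genes most like Slc2a1 and Bnip3 among those most like Slc2a3.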

Other observations

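Barcodes that the cell filter leaves out held both transporters. The 960 day 4 barcodes with more than 26000 UMIs had Slc2a1 at 417.5 CPM and Slc2a3 at 349.7 CPM, and the 792 of day 6 had 437 and 337 CPM. Cells with under 1% mitochondrial counts, kept by the filter, were at 387 and 351 CPM on day 4 (468 cells) and at 502 and 371 CPM on day 6 (277 cells).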
